A study of Mus musculus with 6 samples.

Results

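The genes described here are 10 core components of the circadian clock, Arntl, Clock, Per1, Per2, Per3, Cry1, Cry2, Nr1d1, Nr1d2 and Dbp, in mammary epithelial cells (MECs) of 3 wild-type and 3 IL-21isoTg mice. They were chosen by gene symbol from a table of read counts over 55487 genes, and all 10 had enough counts to be among the 17165 genes tested. Levels are given as CPM, that is, read counts scaled to a common library size with the TMM method, unless another scale is named. By edgeR's quasi-likelihood test no clock gene differed between the genotypes, and neither did any other of the 17165 genes tested. Several clock genes differed widely between mice. Over the 6 mice the level of Dbp spanned 8.58-fold, that of Per3 5.02-fold and that of Arntl 3.47-fold. Within genotypes Dbp ran from 12.1 to 82.7 CPM in wild-type and from 30.3 to 104 CPM in IL-21isoTg mice. The order of the mice by Arntl was the exact reverse of their order by Dbp and by Per1.

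All mice were female, 10 weeks old and of the BALB/c strain, and each contributed 1 library. IL-21isoTg mice carry a transgene for a membrane-bound isoform of the cytokine IL-21 that is expressed specifically in T cells, so the epithelium itself is not the cell type in which the transgene is directed, and the promoter is not given in the sources used here. MECs were the cells left after enzymatic digestion of mammary tissue and removal of cells carrying the leukocyte marker CD45, the endothelial marker CD31 or the fibroblast marker CD140a. Mice were housed under a light and dark cycle, were virgins, and had been randomized for the stage of the estrous cycle. The hour at which each mouse was killed is not given in the sources used here, so a difference in time of collection cannot be told apart from other differences between mice.

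The circadian clock is a loop of transcription that runs in nearly every cell. ARNTL (also called BMAL1) and CLOCK bind together to E-box sequences and switch on the Per, Cry, Nr1d and Dbp genes, the PER and CRY proteins then repress ARNTL and CLOCK, and the NR1D1 and NR1D2 receptors (REV-ERBs) repress Arntl. In mouse tissues Arntl mRNA is therefore highest at about the time of day when Dbp and Nr1d1 mRNA are lowest, and the mRNAs peak in succession, with Nr1d1 and Dbp ahead of Per2 and Cry1 among the last. Clock mRNA varies little over the day in most tissues, and Per1 and Per2 can also be induced acutely by glucocorticoid and by stress.

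Promoter windows from RefSeq (build GRCm38.p6, 250 bases before to 50 bases after an annotated start) were matched by symbol for 9 of the 10 genes, and were searched on both strands for the letters bound by clock factors. These genes had 13 windows, and a gene was listed for a motif if any of its windows held it. Percentages are per window. The E-box CACGTG was present in 7.15% of all 32851 windows and in those of Per1 (166 bases before the start) and Cry1 (60 bases before). A variant E-box, CACGTT or its other strand AACGTG, was present in 4.68% of windows and in those of Cry1, Cry2 and Nr1d1. The D-box, bound by DBP, was searched as TTATGTAA or TTACGTAA, which 1.06% of windows held, and among the clock genes it was found in Per3, in 2 copies 205 and 158 bases before the start. The ROR element TAGGTCA or TGGGTCA, bound by the REV-ERB receptors, was found in 6.45% of windows and in that of Arntl, 30 bases after the start. The cAMP response element TGACGTCA was in 1.79% of windows and in none of those of the 9 clock genes. These are matches of letters, and none of these data measured binding. The 250 bases upstream of the start are printed for Per3, Cry1 and Per1, the windows with an exact D-box or E-box, from 5′ to 3′ on the strand of the gene with D-boxes, E-boxes and the variant E-box in capitals. They lie at chr4:151044666-151044915 (Per3, minus strand), chr10:85185055-85185304 (Cry1, minus strand) and chr11:69098699-69098948 (Per1, plus strand). The Per1 stretch lies inside the gene position given below (69095217 to 69109960), so its start is not the outermost one.
Per3: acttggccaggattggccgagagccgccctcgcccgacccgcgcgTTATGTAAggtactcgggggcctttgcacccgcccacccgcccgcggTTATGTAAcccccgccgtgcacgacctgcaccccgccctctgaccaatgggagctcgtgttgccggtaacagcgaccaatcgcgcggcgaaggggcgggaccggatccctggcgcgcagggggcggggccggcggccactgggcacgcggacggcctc
Cry1: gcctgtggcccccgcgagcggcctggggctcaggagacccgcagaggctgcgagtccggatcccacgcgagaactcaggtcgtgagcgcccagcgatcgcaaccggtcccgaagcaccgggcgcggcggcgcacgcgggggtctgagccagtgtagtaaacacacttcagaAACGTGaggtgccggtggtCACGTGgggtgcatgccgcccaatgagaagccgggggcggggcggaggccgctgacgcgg
Per1: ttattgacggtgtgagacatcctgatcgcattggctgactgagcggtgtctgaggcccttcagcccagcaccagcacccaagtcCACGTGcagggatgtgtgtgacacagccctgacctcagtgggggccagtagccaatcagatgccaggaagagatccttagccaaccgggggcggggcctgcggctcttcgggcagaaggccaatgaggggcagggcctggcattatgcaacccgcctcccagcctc

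Total counts ranged from 15902886 to 25719244 per mouse, so that the floor of 3 counts corresponded to 0.112 to 0.280 CPM. Clock gene counts ran from 97 (Arntl, IL-21isoTg mouse 1) to 6782 (Per1, the same mouse), and counting error alone came to 10.2% of the lowest. Reads of Il21, which check the genotype, were 0, 0 and 37 in wild-type mice 1, 2 and 3 and 795, 216 and 131 in IL-21isoTg mice 1, 2 and 3. Epithelial markers were abundant in every library, with summed levels of 6308 to 7461 CPM for 9 luminal genes and 1394 to 1889 CPM for 7 basal genes in wild-type mice, and 5277 to 8871 CPM and 1566 to 2826 CPM in IL-21isoTg mice. The libraries also held markers of the cells that the selection was meant to remove. Of 6 T cell markers 5 were tested. All 6 summed to 5.86 to 10.1 CPM in wild-type and 9.70 to 10.4 CPM in IL-21isoTg mice. Of 8 macrophage markers 7 were tested, and all 8 summed to 18.7 to 28.6 and 20.6 to 23.6 CPM. All 6 endothelial markers were tested, with 88.4 to 222 and 136 to 306 CPM, as were all 6 fibroblast markers, with 1929 to 3416 and 4275 to 4935 CPM, so that the sums for fibroblasts did not overlap between the genotypes. Of 5 adipocyte markers 3 were tested, and all 5 summed to 25.4 to 67.8 and 30.1 to 192 CPM. Genes of salivary gland took 22.9%, 6.65% and 15.7% of all counts in wild-type mice 1, 2 and 3 and 22.5%, 4.92% and 41.0% in IL-21isoTg mice 1, 2 and 3. Of that list of 15 genes 13 were tested, and Smr2 and Muc19 were at or near 0. Because whole populations were sequenced, fewer cells of a type and less RNA per cell cannot be told apart in any value below.

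The activators of the loop were among the least abundant members per length. Arntl encodes the partner of CLOCK (chromosome 7, 113207465 to 113314126, plus strand, build GRCm38, the build of all gene positions given here). Its level was 14.0, 5.48 and 6.07 CPM in wild-type mice 1, 2 and 3 and 4.03, 7.63 and 9.61 CPM in IL-21isoTg mice 1, 2 and 3. Wild-type mouse 1 was highest and IL-21isoTg mouse 1 was lowest, and the genotypes overlapped (8.51 ± 4.75 against 7.09 ± 2.83 CPM, mean ± SD, n = 3 each). The log2 fold change of IL-21isoTg over wild-type was -0.27 with a standard error (SE) of 0.46, and edgeR's quasi-likelihood test gave an adjusted p of 0.928. Clock (chromosome 5, 76209868 to 76304792, minus strand) was at 33.6, 50.6 and 49.4 CPM in wild-type and at 31.8, 41.1 and 37.7 CPM in IL-21isoTg mice, in the order of their numbers. It spanned 1.59-fold over the 6 mice, the narrowest range of the 10 genes, and its log2 fold change was -0.27 (SE 0.20, edgeR adjusted p = 0.830).

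Of the Per genes, which encode the repressors that bind CRY proteins, Per1 (chromosome 11, 69095217 to 69109960, plus strand) was at 105, 192 and 179 CPM in wild-type and at 282, 174 and 151 CPM in IL-21isoTg mice. IL-21isoTg mouse 1 was highest and wild-type mouse 1 lowest, the mice at the opposite ends for Arntl, and the log2 fold change was 0.35 (SE 0.31, edgeR adjusted p = 0.851), or 0.037 without IL-21isoTg mouse 1. Per2 (chromosome 1, 91415982 to 91459324, minus strand) was at 39.9, 117 and 117 CPM in wild-type and at 107, 111 and 48.2 CPM in IL-21isoTg mice. Its values fell into separate ranges, with wild-type mouse 1 and IL-21isoTg mouse 3 low and the other 4 mice within a narrow band, and the genotype means were nearly equal (91.2 ± 44.5 and 88.5 ± 34.9 CPM). The log2 fold change was -0.04 (SE 0.45, edgeR adjusted p = 0.991). Per3 (chromosome 4, 151003652 to 151044665, minus strand) was at 7.40, 37.1 and 34.9 CPM in wild-type and at 31.6, 23.8 and 14.8 CPM in IL-21isoTg mice, with the same 2 mice lowest. Its log2 fold change was -0.17 (SE 0.55, edgeR adjusted p = 0.963).

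Cry1 and Cry2 encode the cryptochromes, the other arm of the repressor. Cry1 (chromosome 10, 85131700 to 85185064, minus strand) was at 23.2, 23.4 and 18.4 CPM in wild-type and at 21.7, 26.4 and 15.01 CPM in IL-21isoTg mice, a 1.76-fold range. Cry2 (chromosome 2, 92403646 to 92434043, minus strand) was at 23.8, 55.0 and 60.1 CPM in wild-type and at 64.3, 54.5 and 41.4 CPM in IL-21isoTg mice. Again wild-type mouse 1 and IL-21isoTg mouse 3 were lowest for Cry2, and IL-21isoTg mouse 1 was highest. The log2 fold changes were -0.04 for Cry1 (SE 0.24, edgeR adjusted p = 0.982) and 0.21 for Cry2 (SE 0.34, edgeR adjusted p = 0.926).

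Nr1d1 and Nr1d2 encode REV-ERBα and REV-ERBβ. Nr1d1 (chromosome 11, 98767932 to 98775333, minus strand) was at 135, 96.0 and 137 CPM in wild-type and at 163, 103 and 360.1 CPM in IL-21isoTg mice. IL-21isoTg mouse 3 stood above the other 5 mice, and the means were 123 ± 23.2 and 208 ± 135 CPM (n = 3 each). Nr1d1 had the largest fold change of the 10 genes on the log2 scale, 0.76 (SE 0.42), with an unadjusted p of 0.109 and an adjusted p of 0.809 by edgeR. With 1 mouse left out at a time its log2 fold change ranged from 0.12, without IL-21isoTg mouse 3, to 1.09, without IL-21isoTg mouse 2 (edgeR adjusted p = 0.550). The share of salivary gland counts was highest in IL-21isoTg mouse 3, and with that share as a covariate the log2 fold change of Nr1d1 was 0.22. Nr1d2 (chromosome 14, 18204054 to 18239127, minus strand) was at 96.7, 159 and 184 CPM in wild-type and at 189, 139 and 194 CPM in IL-21isoTg mice, with a log2 fold change of 0.25 (SE 0.26, edgeR adjusted p = 0.878). Wild-type mouse 1 was lowest for Nr1d2, whereas IL-21isoTg mouse 3, low for Dbp and Per2, was the highest of all.

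Dbp, an output of the clock that encodes a D-box binding activator (chromosome 7, 45705088 to 45710203, plus strand), varied most. It was at 12.1, 82.7 and 67.5 CPM in wild-type and at 104, 65.8 and 30.3 CPM in IL-21isoTg mice, which corresponds to 268, 1721, 1500, 2494, 1768 and 325 counts. Wild-type mouse 1 and IL-21isoTg mouse 3 were lowest, 1 in each genotype, and IL-21isoTg mouse 1 was highest. The genotype means were 54.1 ± 37.2 and 66.6 ± 36.7 CPM, and the log2 fold change was 0.30 (SE 0.66, edgeR adjusted p = 0.944).

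**Figure D1:**
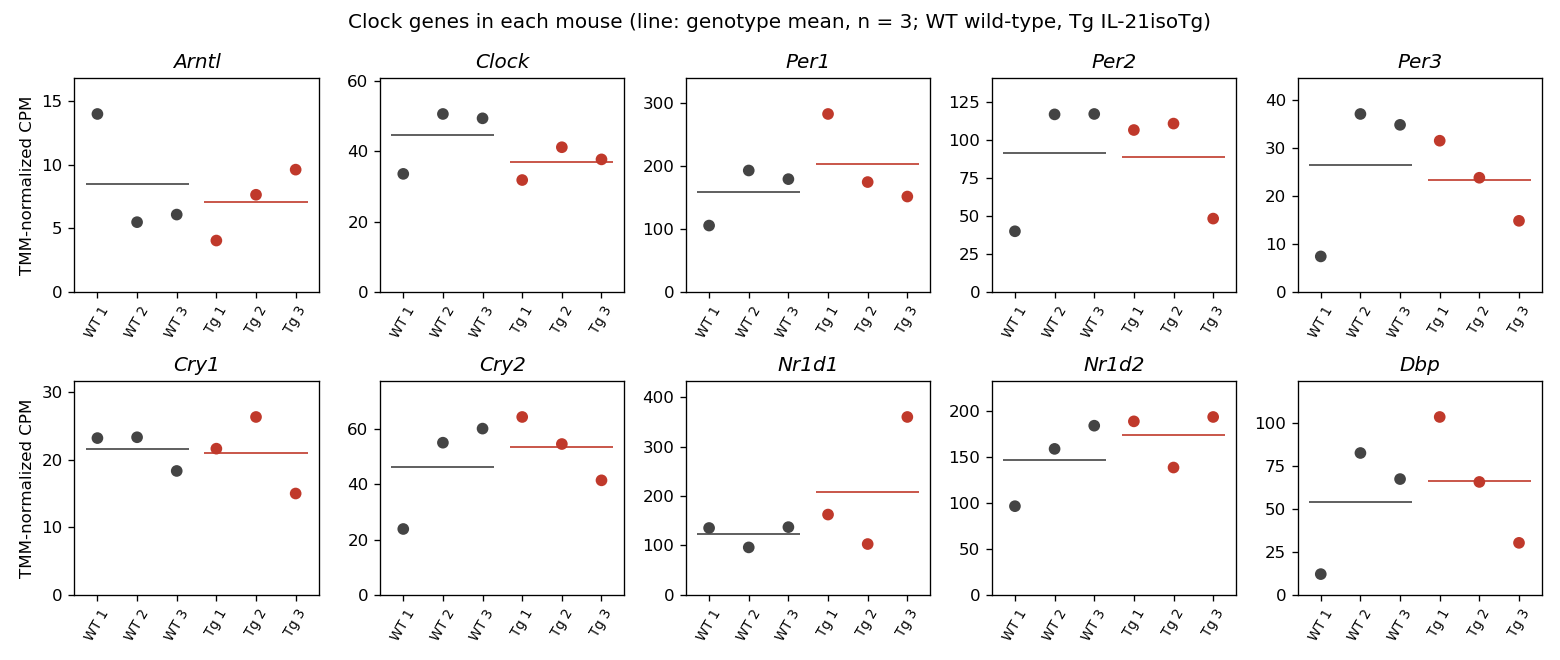
Levels of the 10 clock genes in each mouse, in TMM-normalized CPM on axes that start at 0. Each point is 1 mouse (grey, wild-type; red, IL-21isoTg) and each line is the mean of 3 mice. The genotypes overlap for every gene, and wild-type mouse 1 and IL-21isoTg mouse 3 are the lowest mice for Per1, Per2, Per3, Cry2 and Dbp.

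Taking the 10 genes as a list, edgeR called 0 of 10 at an adjusted p under 0.05, where it called 0.0% of all genes tested, with adjusted p-values of 0.809 to 0.991 for the clock genes. At an unadjusted p under 0.05 it found 0 of 10, beside 5.82% of all genes. DESeq2's Wald test called 0 of 10 (0.466% of all genes) and found 0 of 10 at an unadjusted p under 0.05 (6.93% of all genes), and limma-voom called 0 of 10 as well. No clock gene had all 3 mice of 1 genotype above all 3 of the other, a pattern that 12.1% of all genes showed. In IL-21isoTg mice 5 clock genes were higher (47.9% of all genes) and 5 were lower (52.1% of all genes), with a median log2 fold change of 0.08 against -0.02 over all genes. With 3 mice against 3 the SE of the log2 fold changes was 0.20 to 0.66, and differences of that size were not detectable. The 5 genes that were higher on this scale were Nr1d1, Per1, Dbp, Nr1d2 and Cry2, and in 3 of these (Nr1d2, Cry2 and Dbp) the sign changed when 1 or 2 mice were left out.

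**Figure D2:**
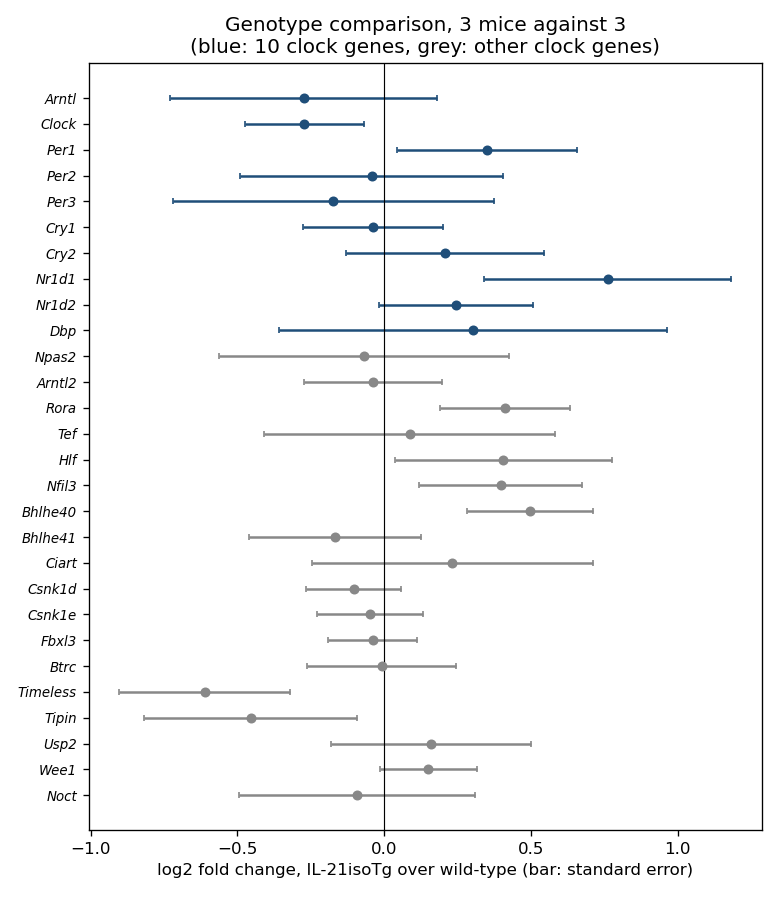
Log2 fold change of IL-21isoTg over wild-type for the 10 clock genes (blue) and other clock genes tested (grey), with the standard error as a bar, from edgeR's quasi-likelihood fit on 3 mice against 3. The clock genes lie between -0.27 and 0.76, and none of the genes shown passed the test.

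Compared per length, as CPM per kilobase of exon, Nr1d1 was the most abundant clock gene at 53.8 ± 32.0 (mean ± SD over all 6 mice), followed by Per1 at 32.1 ± 10.4, Nr1d2 at 29.7 ± 6.95, Dbp at 20.2 ± 11.3 and Per2 at 15.3 ± 6.12. Then came Cry2 at 7.89 ± 2.36, Cry1 at 6.39 ± 1.21, Clock at 2.96 ± 0.576, Per3 at 2.60 ± 1.23 and Arntl at 1.04 ± 0.476 CPM per kilobase. Between neighbours in this order the ranges over mice overlapped, except between Cry1 and Clock. Within mice, Nr1d2 was above Dbp, Per2 above Cry2 and Cry1 above Clock in 6 of 6 mice.

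Some counts may hold reads of a neighbour, since exons of 4 clock genes overlap those of a gene on the opposite strand. The kit kept strand, but whether the counting used it is not given in the sources used here. Nr1d1 shares 263 bases of exon with Thra, a thyroid hormone receptor gene, which was at 52.0, 66.8 and 71.9 CPM in wild-type and at 74.0, 54.1 and 121 CPM in IL-21isoTg mice, so that IL-21isoTg mouse 3 was highest for both. Dbp shares 539 bases with Sphk2, which encodes a sphingosine kinase, and the level of Sphk2 was 25.6, 53.7 and 52.5 CPM in wild-type and 64.8, 48.8 and 46.3 CPM in IL-21isoTg mice. Wild-type mouse 1 was lowest and IL-21isoTg mouse 1 was highest for Sphk2 as they were for Dbp. The partners of Cry2 (D930015M05Rik, 295 shared bases, 17 to 117 counts per mouse) and of Arntl (Gm45355, 33 shared bases, 3 to 17 counts) had few reads beside those of the clock genes. Reads from such pairs cannot be told apart where strand was not used.

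The spread between mice of the same genotype was set beside that of all genes tested, as the pooled within-genotype SD of log2(CPM + 0.5). Dbp had an SD of 1.23, above 98.6% of all genes, Per3 had 0.98 (96.5%) and Per2 had 0.79 (93.0%). Nr1d1 followed at 0.68 (88.7%), Arntl at 0.65 (87.5%), Cry2 at 0.56 (81.5%), Per1 at 0.47 (72.8%) and Nr1d2 at 0.39 (62.5%). Cry1 at 0.32 (49.3%) and Clock at 0.27 (39.1%) varied no more than the middle of all genes. The median SD was 0.61 over the 10 clock genes and 0.32 over all genes tested, and 8 of 10 clock genes lay above the 50th percentile of all genes.

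Whether these differences between mice were coordinated was asked with correlations across the 6 mice, for the 45 pairs of clock genes on the log2(CPM + 0.5) scale, with 2-sided exact permutation tests adjusted over the 45 pairs. All 6 mice enter these values irrespective of genotype, and they share a library for each pair. For Arntl and Dbp Pearson's r was -0.96 (exact p = 0.00139, adjusted 0.0208) and Spearman's rho was -1 (exact p = 0.00278, adjusted 0.0417), and r was -0.91 without the 2 mice farthest from the median of Arntl. For Arntl and Per1 r was -0.97 with the same p-values and rho was again -1, and r was -0.96 without those 2 mice. Per1 and Dbp rose and fell together, with r at 0.93 (exact p = 0.00139, adjusted 0.0208), rho at 1.00 (exact p = 0.00278, adjusted 0.0417) and r at 0.98 without the 2 mice farthest from the median of Per1. The smallest p that 6 mice allow is 0.00139 for r and 0.00278 for rho.

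Cry2 moved with Dbp and Per1 and opposite to Arntl. The r of Arntl and Cry2 was -0.92 (exact test, adjusted p = 0.0375), with rho at -0.94 and r at -0.85 without 2 mice. Per1 and Cry2 gave an r of 0.90 (exact test, adjusted p = 0.0375), with rho at 0.94 and r at 0.85 without 2 mice. The r of Cry2 and Dbp was 0.98 (exact p = 0.00694, adjusted 0.0446) with rho at 0.94, but fell to 0.63 without wild-type mouse 1 and IL-21isoTg mouse 3, so it rested largely on those 2. Per3 was opposite to Arntl with an r of -0.92 (exact p = 0.00694, adjusted 0.0446), while rho was -0.83 (exact p = 0.0583), and r was -0.99 without 2 mice.

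In all, 7 of the 45 pairs passed by r at an adjusted p under 0.05 (16 at an unadjusted p under 0.05), and 28 pairs had a positive and 17 a negative r. The sign of r was kept in 30 pairs without the 2 mice farthest from the median of the pair's first gene. Those 2 mice differed between pairs. Per3 and Dbp gave an r of 0.97 that did not pass (exact test, adjusted p = 0.0556) and was 0.34 without wild-type mouse 1 and IL-21isoTg mouse 3. No r is given for Per2, whose values fell into separate ranges. The REV-ERB gene Nr1d1 did not follow Dbp, with an r of -0.31 (exact test, adjusted p = 0.723), nor was it opposite to Arntl (r = 0.24, exact test, adjusted p = 0.823). Nr1d1 gave an r of 0.80 with Arntl without wild-type mouse 1 and IL-21isoTg mouse 1, and 0.11 with Dbp without wild-type mouse 2 and IL-21isoTg mouse 3. Clock and Cry1 gave an r of -0.24 and -0.09 with Arntl over the 6 mice, and of -0.99 and -0.49 without wild-type mouse 1 and IL-21isoTg mouse 1. When deviations from the genotype means were correlated instead, r was of similar size, at -0.96 for Arntl and Dbp, -0.997 for Arntl and Per1, 0.93 for Per1 and Dbp and 0.98 for Cry2 and Dbp. In that form 6 pairs had an unadjusted p under 0.05 and 0 of the 45 passed, but the 36 orders of mice within genotypes allow no exact p below 0.0278, and the smallest adjusted p was 0.208.

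**Figure D3:**
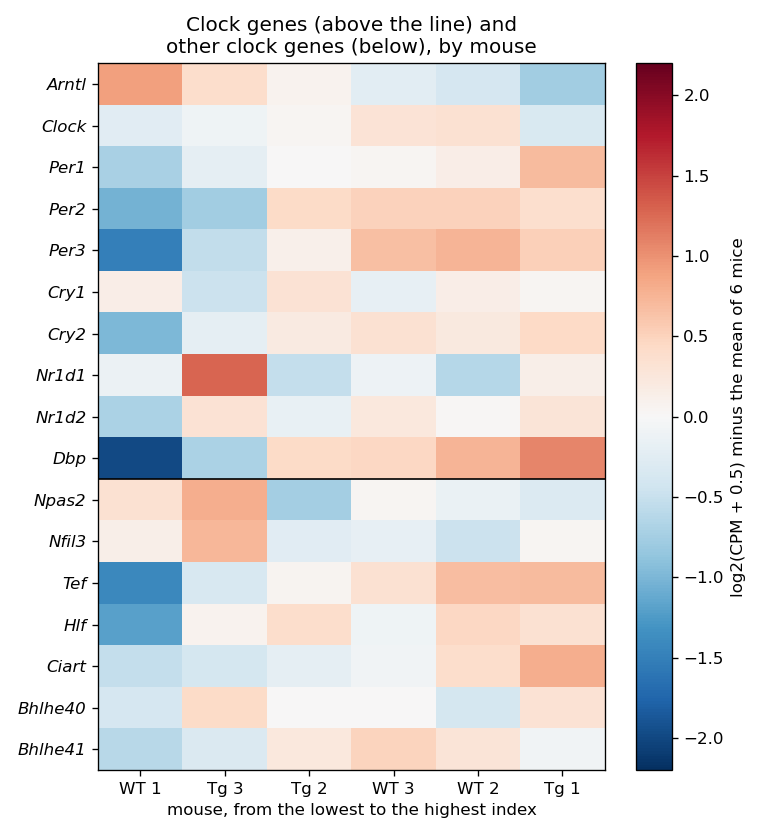
Each row is a gene and each column a mouse, ordered from the lowest to the highest value of the index of Dbp, Nr1d1, Nr1d2 and Per3 over Arntl; colour gives log2(CPM + 0.5) minus the mean of the 6 mice. Arntl goes from high in wild-type mouse 1 to low in IL-21isoTg mouse 1, Dbp and Per3 go the other way, Nr1d1 is highest in IL-21isoTg mouse 3, and Clock and Cry1 vary least.

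Ratios of counts within a library do not depend on the scaling of libraries. The ratio of Dbp to Arntl counts was 0.865, 15.1 and 11.1 in wild-type mice 1, 2 and 3 and 25.7, 8.62 and 3.16 in IL-21isoTg mice 1, 2 and 3. That of Per2 to Arntl was 2.85, 21.3 and 19.3 in wild-type and 26.4, 14.5 and 5.02 in IL-21isoTg mice, the same order of mice. Both ratios share Arntl, so their orders are not independent, and the level of Per2 alone did not have the order of Dbp. The ratio of Nr1d1 to Arntl, 9.68, 17.5 and 22.6 in wild-type and 40.3, 13.5 and 37.5 in IL-21isoTg mice, was high in IL-21isoTg mouse 3. That mouse and wild-type mouse 1 were alike in Dbp over Nr1d1, at 0.0842 and 0.0893, against 0.492 to 0.861 in the other 4 mice. They were also alike in Per3 over Nr1d1, at 0.0412 and 0.0546 against 0.194 to 0.387, and lowest in Per2 over Nr1d1, at 0.134 and 0.295 against 0.655 to 1.22.

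A descriptive index was taken as the mean log2(CPM + 0.5) of Dbp, Nr1d1, Nr1d2 and Per3 minus that of Arntl, without Per1 and Per2. Its values were 1.22, 3.80 and 3.75 in wild-type and 4.48, 3.09 and 2.91 in IL-21isoTg mice, a range of 3.25 on the log2 scale. The means were 2.93 ± 1.47 in wild-type and 3.49 ± 0.86 in IL-21isoTg mice (SD, n = 3 each), and the difference of 0.57 was smaller than either SD. It turned to -0.28 without wild-type mouse 1 and ranged from -0.28 to 1.00 when each mouse was left out in turn. Without wild-type mouse 1 and IL-21isoTg mouse 3 it was 0.0087. With Per3 left out of the index, wild-type mice 2 and 3 changed places in its order, as did IL-21isoTg mice 2 and 3. Nr1d1, which enters the index, was not opposite to Arntl in these mice (r = 0.24). An hour cannot be read from this index, since no mouse of known time was measured alongside.

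A list of 21 other genes of the clock was set beside the 10, of which 19 were tested and Rorb and Fbxl21 had too few counts. By edgeR 0 of 19 were called (adjusted p-values of 0.809 to 0.997), 1 had an unadjusted p under 0.05 beside 5.82% of all genes, and 2 did not overlap between the genotypes beside 12.1% of all genes. Bhlhe40, which encodes the repressor DEC1, was at 505, 504 and 659.6 CPM in wild-type and at 815, 661 and 878 CPM in IL-21isoTg mice, with a log2 fold change of 0.50 (SE 0.21, edgeR adjusted p = 0.809). Rora, which encodes an activator of Arntl that competes with the REV-ERBs, was at 22.2, 36.4 and 37.1 CPM in wild-type and at 42.5, 38.7 and 46.2 CPM in IL-21isoTg mice (log2 fold change 0.41, SE 0.22, edgeR adjusted p = 0.809). All 3 IL-21isoTg mice were above all 3 wild-type mice for these genes, though neither passed the test after adjustment. Over the list IL-21isoTg mice had higher values for 9 genes and lower values for 10, with a median log2 fold change of -0.01 and a range of -0.61 (Timeless) to 0.50.

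Tef and Hlf encode the PAR bZIP factors most closely related to DBP. Tef was at 35.6, 155 and 121 CPM in wild-type and at 155, 100.4 and 74.6 CPM in IL-21isoTg mice, and its order of mice was that of Dbp. Hlf was at 14.3, 45.9 and 31.2 CPM in wild-type and at 42.1, 43.6 and 35.3 CPM in IL-21isoTg mice, lowest in wild-type mouse 1 but not low in IL-21isoTg mouse 3. Ciart, which encodes the repressor CHRONO, was low throughout at 1.80, 3.84 and 2.65 CPM in wild-type and 5.24, 2.38 and 2.05 CPM in IL-21isoTg mice, yet kept the order of Dbp. Among all 17165 genes tested, 52 others (0.303%) had the order of mice of Dbp, among them Per1, Tef and Ciart, and 94 (0.548%) had the exact reverse, among them Arntl.

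Further genes of the loop and its outputs varied as well. Npas2, a paralogue of Clock, was at 3.97, 2.69 and 3.15 CPM in wild-type and at 2.37, 1.601 and 5.60 CPM in IL-21isoTg mice. Nfil3, the D-box repressor, was at 57.8, 38.0 and 46.7 CPM in wild-type and at 54.7, 44.7 and 88.8 CPM in IL-21isoTg mice. Wild-type mouse 1 and IL-21isoTg mouse 3, the lowest for Dbp, were the 2 highest for both. Bhlhe41, the paralogue of Bhlhe40, was lowest in the same 2 mice (119, 221 and 257 CPM in wild-type, 172, 213 and 147 CPM in IL-21isoTg mice). The within-genotype SD of log2(CPM + 0.5) exceeded that of 90% of all genes for Tef (0.88), as it did for Dbp, Per3 and Per2 of the 10 clock genes. Its median over the 19 was 0.42.

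Other genes moved with the index too. Of 11602 genes outside the 10 with a mean of at least 5 CPM, 278 (2.40%) had a Pearson r above 0.9 with the index over the 6 mice and 454 (3.91%) had an r below -0.9. The 5 highest were Xpa, Acbd4, Xpc, Arhgap27 and Ap5z1, each at an r of 0.99. The 5 lowest were Rap2b at -0.998, Tgfa at -0.996 and Bcl2l13, Pttg1ip and Spry2 at -0.99. Of the other clock genes Tef had an r of 0.97, which 0.164% of these genes reached, and Hlf had 0.85, whereas Noct was at -0.88 and Csnk1d at -0.96. These values describe 6 libraries and carry no test.

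Immediate-early genes, which cells switch on within minutes of a stimulus such as tissue dissociation, differed between the same mice. The list of 12 used here also holds the heat-shock genes Hspa1a and Hspa1b. All 12 were tested, 0 were called by edgeR (0.0% of all genes) and 0 had an unadjusted p under 0.05 (5.82% of all genes), with a median log2 fold change of -0.06 between the genotypes. Their summed level was 7582, 20759 and 21267 CPM in wild-type and 18524, 15868 and 10270.3 CPM in IL-21isoTg mice, so that wild-type mouse 1 and IL-21isoTg mouse 3 were lowest, as for Dbp. Fos, a subunit of the factor AP-1, was at 958, 3638 and 3292 CPM in wild-type and at 3132, 2150.1 and 1312 CPM in IL-21isoTg mice. Over the 12 genes r with the index had a median of 0.89 and ran from 0.07 (Ier3) to 0.96 (Junb), with Fos at 0.90, Egr1 at 0.94, Dusp1 at 0.87 and Atf3 at 0.91. The heat-shock genes Hspa1a and Hspa1b were at 0.60 and 0.55. Ier3 was lowest in wild-type mouse 2 instead, and the order of mice by Egr1, Ier2 and Nr4a1 was that of Dbp. How far dissociation had a part in the levels of Per1, Per2 or the other clock genes was not tested.

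Glucocorticoid targets, listed because the hormone has a daily rhythm and induces Per1, were less uniform. Of 9 tested genes 0 were called by edgeR (0.0% of all genes) and 3 (Fkbp5, Klf9 and Mt2) had an unadjusted p under 0.05 (5.82% of all genes), all higher in IL-21isoTg mice, with a median log2 fold change of 0.48 over the list against -0.02 over all genes. Fkbp5, a feedback regulator of the receptor, was at 52.7, 52.7 and 35.2 CPM in wild-type and at 104, 48.3 and 74.4 CPM in IL-21isoTg mice (log2 fold change 0.69, edgeR adjusted p = 0.809), with an r of 0.26 with the index. Tsc22d3 (GILZ) was at 14.7, 58.2 and 23.5 CPM in wild-type and at 71.3, 37.6 and 25.0 CPM in IL-21isoTg mice, and Zbtb16 was at 12.4, 42.9 and 39.0 and at 55.7, 16.7 and 43.2 CPM. Both were lowest in wild-type mouse 1 and highest in IL-21isoTg mouse 1, as Dbp was, with an r of 0.84 each, the highest of the list. Sgk1 went differently, at 333, 224 and 261 CPM in wild-type and 255, 299 and 162 CPM in IL-21isoTg mice, with an r of -0.34. Over the 9 genes r with the index ran from -0.58 to 0.84, with 4 positive and 5 negative and a median of -0.14. The part of glucocorticoid in the clock gene levels was not tested.

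**Figure D4:**
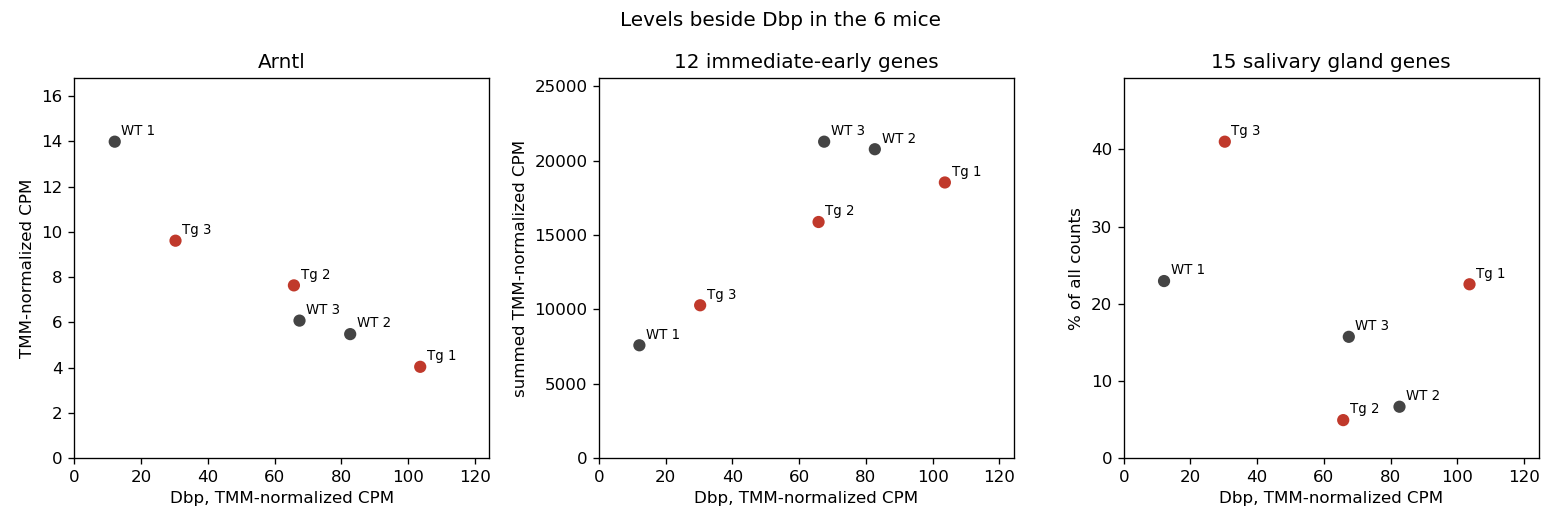
Arntl, the sum of the 12 genes of the immediate-early list (with the heat-shock genes Hspa1a and Hspa1b) and the share of counts from 15 salivary gland genes, each plotted against Dbp in the 6 mice (grey, wild-type; red, IL-21isoTg). Arntl falls as Dbp rises, the immediate-early sum is lowest in the 2 mice with the least Dbp, and salivary gland shares of 22.9% and 22.5% accompany the lowest and the highest Dbp.

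The salivary gland share did not order the mice as Dbp did. Wild-type mouse 1 and IL-21isoTg mouse 1, with shares of 22.9% and 22.5%, had the lowest and the highest Dbp, 12.1 and 104 CPM, and IL-21isoTg mouse 3, with 41.0%, had 30.3 CPM. Nr1d1 followed the share more closely. It was lowest, at 96.0 and 103 CPM, in wild-type mouse 2 and IL-21isoTg mouse 2, which had the smallest shares (6.65% and 4.92%). IL-21isoTg mouse 3, with the largest share, had the highest Nr1d1 (360.1 CPM). The part of salivary gland RNA in the level of Nr1d1 was not tested. Over the 13 salivary gland genes tested r with the index ran from -0.26 (Cst10) to 0.69 (Dcpp2), with 4 positive and 9 negative and a median of -0.18. Over the 9 luminal genes r with the index ran from -0.87 (Cdh1) to 0.69 (Elf5), with 5 positive and 4 negative. The 4 negative were Krt8, Krt18, Epcam and Cdh1, at -0.72 to -0.87. Summed basal, fibroblast and adipocyte markers were each lowest in wild-type mouse 1 and highest in IL-21isoTg mouse 1, as Dbp was. The sums of endothelial, T cell and macrophage markers were lowest in other mice. The part of cell composition in the clock gene levels was not tested.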

How the data were processed

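RNA-seq was carried out on MECs of 3 wild-type and 3 IL-21isoTg mice, which the labels give as separate mice. The authors deposited unnormalized read counts per gene, and the submitters' processing notes name Trimmomatic 0.38, HISAT2 2.1.0, featureCounts 1.6.3 and DESeq2 1.24.0 with mm10, without settings. The authors also deposited normalized values and their own comparison (fold changes and p-values), which were not used apart from gene start and end positions, taken as deposited coordinates to check the annotation (GENCODE M21, GRCm38).

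Genes were filtered with filterByExpr (minimum count 10, minimum total 15), normalized with TMM and compared with edgeR 4.0.16 (quasi-likelihood, genotype only) in R 4.3.3, with Benjamini-Hochberg adjustment over the 17165 genes tested. SE is the log2 fold change divided by the square root of F. DESeq2 1.42.0 and limma 3.58.1 were alternatives, and the fit was tested on simulated data. Genes named beyond the 10 were those of fixed lists, genes without overlap between genotypes, genes overlapping a clock gene, and the 5 highest and 5 lowest by r with the index. Timeless, Noct, Csnk1d, Krt8, Krt18, Epcam, Cdh1, Elf5, Cst10, Dcpp2, Klf9, Mt2, Ier2, Ier3, Junb, Nr4a1, Hspa1a and Hspa1b, which are on lists, were named after their values were seen. The values of 1 gene of the lists are not reported here. The members and lists were chosen with earlier results of these data known. An exact permutation test of 3 mice against 3 cannot give a p below 0.1. Floors cover counting error only. Total counts of 15902886 to 25719244 left every clock gene with at least 97 counts.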

Additional observations from a re-analysis of the deposited data

How the results depend on the processing

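In each of the 16 alternatives 0 of the 10 clock genes and 0 of the 19 other clock genes were called, and leaving out each mouse in turn also gave 0 to 0 for both; the lowest adjusted p of a clock gene was 0.540. Over all genes 0 were called by edgeR (999 at an unadjusted p under 0.05), 14 without the filter, 80 by DESeq2 (72 of them higher in IL-21isoTg mice) and 0 to 6 when each mouse was left out, with 6 without wild-type mouse 3; without wild-type mouse 1 and IL-21isoTg mouse 3, an alternative chosen after seeing the data, 7 were called.

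Of 160 combinations of clock gene and alternative, 136 kept the sign of the log2 fold change and 24, over 7 genes, reversed it. Leaving out 1 mouse gave -0.54 to 0.30 for Arntl, -0.39 to 0.26 for Per2, -0.60 to 0.15 for Per3, -0.23 to 0.15 for Cry1, -0.093 to 0.44 for Cry2 and -0.16 to 0.75 for Dbp, and, with the sign kept, -0.43 to -0.17 for Clock, 0.037 to 0.53 for Per1, 0.12 to 1.09 for Nr1d1 and 0.034 to 0.44 for Nr1d2. Without wild-type mouse 1 and IL-21isoTg mouse 3 the value was 0.016 for Arntl, 0.21 for Cry1 and -0.058 for Nr1d2. With limma-voom it was 0.029 for Per2 and 0.16 for Per3, and with the salivary gland share as a covariate it was 0.29 for Per2, 0.19 for Per3 and 0.063 for Cry1. The cause was not tested. Of the 45 pairs of clock genes 7 passed by r, 8 with DESeq2 size factors, 7 with a pseudocount of 2 and 0 with deviations from the genotype means, where r stayed of similar size (-0.96 for Arntl and Dbp) and 36 orders allow no exact p below 0.0278.

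Whether same-numbered mice were collected or processed together is not given in the sources used here. Their deviations correlated at -0.26, 0.096 and -0.06, so no shared deviation was seen. Low correlations cannot exclude pairing, because mice handled together need not deviate alike. With the replicate number as a block 0 genes were called, and the log2 fold change was 0.016 for Per2 and 0.00033 for Per3. The difference in the index stayed at 0.57, which is fixed by the design, since each block held 1 mouse of each genotype.

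With 3 mice in each genotype and no recorded hour of collection, differences of the size of the SE above could not be detected, and low counts limit Arntl most.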
